A study of Mus musculus with 20 samples.

Results

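The genes described here are 9 markers of the pericentral, Wnt-driven zone of the mouse liver lobule: Glul, Oat, Rhbg, Slc1a2, Slc1a4, Lgr5, Rnf43, Axin2 and Tbx3. They were chosen by name, with earlier results of these data known, as the non-control probes of the array that carry one of these gene names. The array holds 13 probes for them, and 10 of these probes, standing for 8 of the 9 genes, could be tested among 20623 genes in all. Liver RNA came from 20 male mice, 4 from each of 5 inbred strains, with 1 single-colour (Cy3) Agilent array per mouse. According to the labels, B6 (C57BL/6) and 129Ola (129P2/OlaHsd) are lean strains that resist diabetes, whereas C3H (C3HeB/FeJ), DBA (DBA/2J) and NZO (NZO/HiBomDife) are prone to it, and NZO is in addition obese. Every mouse, of whichever strain, was fed a diet with 45% fat, so no strain has a group on another diet. The labels give week 6 for the liver samples and can be read as age or as time on the diet. Values per mouse follow the animal numbers of the labels, which are 9, 10, 11 and 15 for B6, 3, 7, 9 and 11 for NZO, 5, 8, 9 and 15 for DBA, 1, 2, 3 and 5 for C3H, and 4, 5, 7 and 9 for 129Ola.

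Hepatocytes that border the central vein receive Wnt ligands and R-spondins from the endothelium of that vein, and beta-catenin signalling keeps a distinct set of genes switched on in them. Glutamine synthetase, the product of Glul, is the classic marker of this thin rim, where ammonia that escaped the periportal urea cycle is fixed into glutamine. Members of the set supply that reaction with substrate (Oat, Slc1a2, Rhbg), and others set or damp the Wnt signal itself (Lgr5, Rnf43, Axin2). Whole liver was measured, so a lower level of such a gene can come from fewer cells of the rim or from less RNA per cell, and these cannot be told apart here.

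The sequences that the results below turn on are a probe of the glutamate transporter Slc1a2 and the start regions of 3 members. The Slc1a2 probe is printed because it separated the strains while a second probe to the same gene did not. It lies at chr2:102617752-102617811 (mm9, plus strand) in the transcript NM_011393, and reads without a stop codon in 1 of its 3 forward frames.
Slc1a2 probe: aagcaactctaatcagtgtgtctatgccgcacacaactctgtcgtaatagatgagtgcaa
Start regions were taken from RefSeq (GRCm38.p6), which gave a window of 250 bases upstream for 6 of the 9 members. Lgr5, Tbx3 and Rhbg had no entry. The windows were searched on both strands for the core of the motif that TCF/LEF factors, the DNA-binding partners of beta-catenin, recognise (CTTTGA or CTTTGT, whose reverse complements are TCAAAG and ACAAAG). Of 7 windows, 1 held a match, that of Slc1a2 at chr2:102706188-102706437 (plus strand), with 2 matches in capitals that begin 206 and 77 bases before the start. The first is also a match to the longer form CTTTGAT, which stands on the minus strand and appears in the printed plus strand as its reverse complement ATCAAAG. Among 32851 windows of this length, 27.6% held CTTTGA or CTTTGT and 3.21% held CTTTGAT.
Slc1a2: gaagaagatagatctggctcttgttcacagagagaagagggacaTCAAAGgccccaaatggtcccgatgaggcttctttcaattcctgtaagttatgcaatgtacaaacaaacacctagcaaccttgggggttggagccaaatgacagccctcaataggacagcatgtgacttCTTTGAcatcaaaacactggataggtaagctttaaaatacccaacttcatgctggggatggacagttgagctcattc
The windows of Glul (chr1:153899679-153899928, plus strand) and Slc1a4 (chr11:20332714-20332963, minus strand) are shown beside it, as those of the namesake enzyme of the rim and of the member with the widest spread between strains. Neither holds these letters, which says nothing about binding elsewhere.
Glul: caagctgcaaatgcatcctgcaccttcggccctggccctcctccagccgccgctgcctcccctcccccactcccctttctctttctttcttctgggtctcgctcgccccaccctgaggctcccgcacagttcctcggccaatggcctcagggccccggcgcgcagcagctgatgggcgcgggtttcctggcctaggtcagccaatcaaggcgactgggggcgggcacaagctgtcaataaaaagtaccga
Slc1a4: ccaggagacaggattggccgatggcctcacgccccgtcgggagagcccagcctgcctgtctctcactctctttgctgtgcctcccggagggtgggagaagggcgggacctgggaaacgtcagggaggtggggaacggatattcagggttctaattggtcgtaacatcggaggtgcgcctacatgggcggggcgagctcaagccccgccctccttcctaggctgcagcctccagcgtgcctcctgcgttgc

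Levels are log2 of the processed spot intensity relative to the 75th percentile of the same array, so a difference of 1 is a 2-fold difference, and levels of different genes cannot be set against each other. Arrays of the same strain resembled each other more (correlation across probes 0.972 to 0.993) than any pair of different strains (at most 0.971), and 40% to 59.1% of the probes per array were well above background. This share was 40% to 43.4% in 129Ola, 43.3% to 46.9% in C3H and 49.2% to 59.1% in the other strains. Its part in the levels, which are relative to a percentile of all probes, was not tested. Of the 9 hepatocyte markers, 8 were tested and all 8 were above background in every mouse. Their summed log2 level was between 12.7 and 13.2. Here and below this is the log2 of the summed relative intensities, in which the brightest markers weigh most. By limma 0 of these 8 passed in NZO and 0 in DBA against B6 (3 and 1 at an unadjusted p under 0.05), and 3 were higher and 2 lower in C3H than in 129Ola. Of all genes tested, 18.3% passed in NZO and 15.4% in DBA against B6, 18% in NZO against DBA and 37.9% in C3H against 129Ola. For Kupffer cells and macrophages, 6 of 11 markers were below B6 in NZO and 6 of 11 in DBA, and 8 were lower and 1 higher in C3H than in 129Ola. Their summed log2 level was 7.80 to 8.37 in B6, 7.25 to 7.52 in NZO, 7.23 to 7.44 in DBA, 6.64 to 7.51 in C3H and 7.24 to 7.76 in 129Ola. Markers of the sinusoidal and central vein endothelium, the source of Wnt ligands, changed in 2 of 13 genes in NZO and 4 of 13 in DBA against B6, and in C3H against 129Ola 8 were lower and 2 higher (5 and 2 with arrays scaled on the probes detected on all of them, 5 and 1 with normexp background correction). Their summed log2 level lay between 6.69 and 7.32 in all mice. The mean of their log2 levels was 1.68 to 1.91 in B6, 1.49 to 1.88 in NZO and 1.44 to 1.66 in DBA. It was 1.39 to 1.64 in C3H and 1.74 to 1.93 in 129Ola. Of 5 erythroid markers, 1 was higher in NZO and 3 in DBA than in B6, and 4 were higher in C3H than in 129Ola (median log2 difference 1.34). Their summed log2 level was 7.54 to 7.96 in B6, 8.45 to 9.17 in NZO, 7.32 to 9.17 in DBA, 9.05 to 9.65 in C3H and 7.76 to 8.20 in 129Ola. Of 6 cholangiocyte markers, 3 were lower and 1 higher in NZO than in B6 (median -0.93, and -0.34 with normexp), 2 lower and 1 higher in DBA than in B6, and 2 lower in C3H than in 129Ola. Their summed log2 level was 2.17 to 2.77 in B6, at most 1.81 in NZO, 1.30 to 1.48 in DBA, 1.03 to 1.28 in C3H and at most 2.10 in 129Ola. Of 10 stellate cell markers, 2 were lower in NZO than in B6 (5 with arrays scaled on the detected probes), 3 were lower and 1 higher in DBA than in B6, 5 were lower and 2 higher in NZO than in DBA, and 3 were lower and 2 higher in C3H than in 129Ola. Of 5 tested skeletal muscle markers, 0 passed in any comparison. Their summed log2 level varied widely between mice, from -1.85 to 5.20 in NZO, -0.32 to 3.61 in B6 and 1.12 to 3.02 in DBA. Of 8 lymphocyte markers, 2 were lower in NZO and 1 was higher in DBA than in B6, and 1 was higher and 1 lower in C3H than in 129Ola. Of 2 tested adipocyte markers, 1 was higher in C3H than in 129Ola. The part of these cells in the results on the 9 genes was not tested.

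Tests compared strains that share a version of the scanner software: NZO with B6, DBA with B6, NZO with DBA, and C3H with 129Ola. The first 3 comparisons share strains and are therefore not independent of each other. For C3H against 129Ola each strain was scanned on a day of its own, so scan day and strain cannot be told apart. All C3H arrays also lay on the same slide, and no slide held arrays of both strains. The main fit treats arrays of a slide as independent. DBA mice 8 and 15 were likewise scanned on a day with no mouse of another strain. Values within shared scan days therefore leave these 2 mice out. Levels of C3H and 129Ola are set beside those of the other 3 strains without a test, because the software version differs between these sets. The p-values are two-sided, from limma, and adjusted over all 20623 genes with a threshold of 0.05. In NZO against B6, 2 of the 8 tested members passed, 1 higher and 1 lower in NZO, where 18.3% of all genes did (9.72% higher, 8.57% lower). In DBA against B6, 3 passed, 2 higher and 1 lower in DBA, where 15.4% of all genes did (7.27% higher, 8.08% lower). In NZO against DBA 2 passed, both lower in NZO, where 18% of all genes did (9.76% higher, 8.27% lower). The comparison of C3H with 129Ola gave 1 member, lower in C3H, where 37.9% of all genes passed (15.4% higher, 22.6% lower). Levels of the mice showed no overlap between strains for 4 members in NZO against B6 (22.4% of all genes), 3 in DBA against B6 (19.7%), 3 in NZO against DBA (20%) and 1 in C3H against 129Ola (40.3%). The median log2 difference of the 8 members was -0.19, 0.02, -0.16 and -0.22 in these comparisons in turn, where that of all genes was 0.05, 0.01, 0.04 and -0.08.

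**Figure D1:**
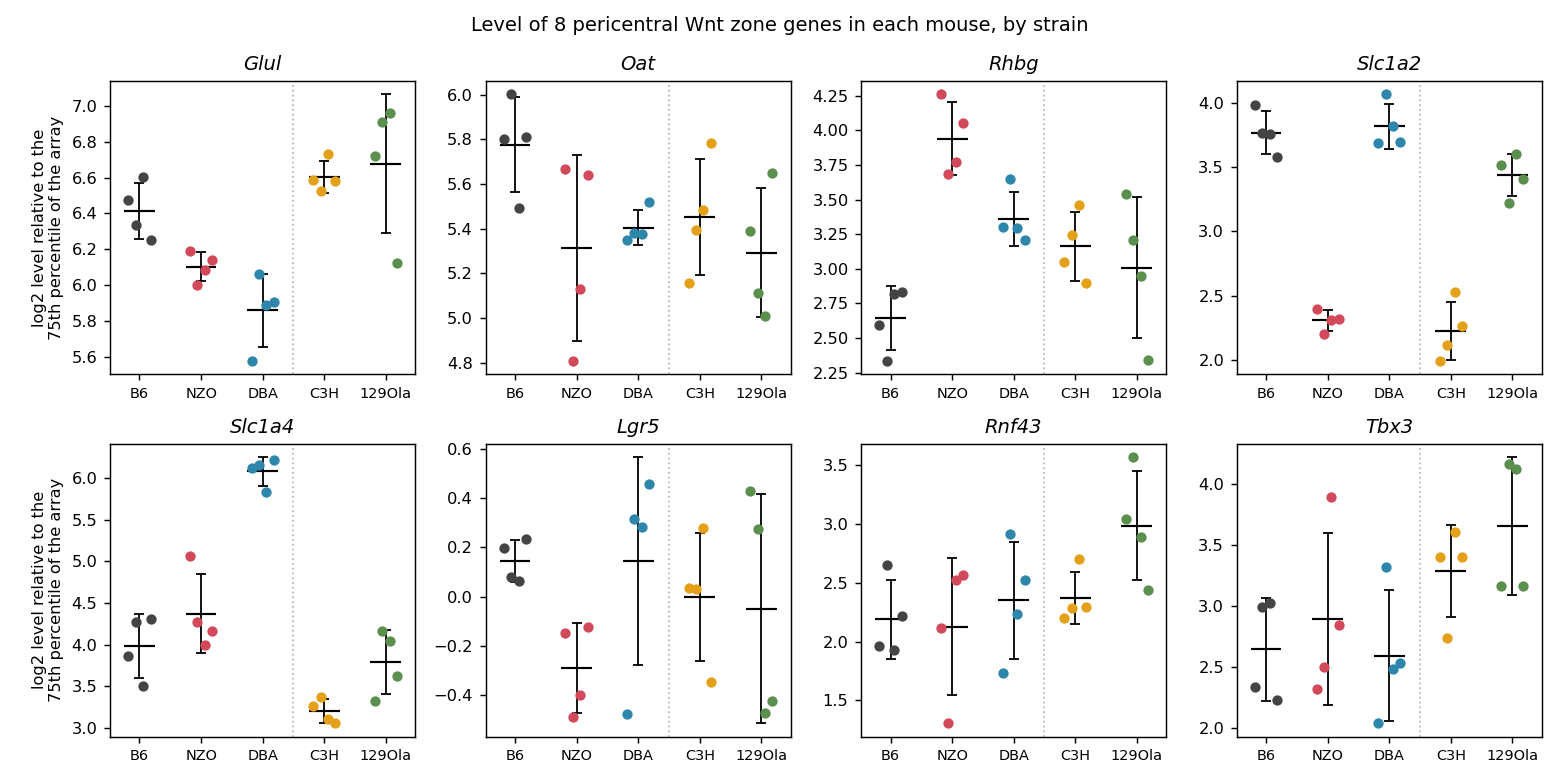
Log2 level relative to the 75th percentile of the array (y axis, a separate scale per gene) for 8 genes in each of the 20 mice, by strain; a point is a mouse, and the horizontal line and bar are the mean ± SD of 4 mice. The dotted line parts the strains of different software versions. Slc1a2 is low in NZO and C3H, Slc1a4 is high in DBA (mean 6.08), and Rhbg is highest in NZO (mean 3.94) and lowest in B6 (mean 2.64).

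Glul encodes glutamine synthetase, which joins ammonia to glutamate. Its probe lies at chr1:155756765-155756824 (mm9, plus strand). The 4 B6 mice had log2 levels of 6.47, 6.33, 6.61 and 6.25, the NZO mice 6.19, 6.00, 6.09 and 6.14, and the DBA mice 5.58, 6.06, 5.89 and 5.91. All 4 DBA mice and all 4 NZO mice thus lay below the lowest B6 mouse, while NZO and DBA overlapped. DBA was lower than B6, with a log2 difference of -0.56 (SE 0.15, adjusted p = 0.0157), or 1.47-fold. This call was lost without B6 mouse 11 (adjusted p = 0.0562) or DBA mouse 5 (adjusted p = 0.0518). Mice scanned on the same day gave -0.40 (1 DBA against 2 B6) and -0.96 (1 against 2). NZO minus B6 was -0.31 (95% interval -0.63 to 0.01, adjusted p = 0.176), and it passed when arrays were scaled by quantile normalization (-0.45, adjusted p = 0.0194), by the percentile of probes detected on all arrays (-0.39, adjusted p = 0.0463) and in the authors' value table (-0.43, adjusted p = 0.017). C3H mice had 6.58, 6.52, 6.73 and 6.58, and 129Ola mice 6.72, 6.91, 6.96 and 6.12. C3H lay inside the range of 129Ola (difference -0.07, 95% interval -0.39 to 0.25). In order the means were 6.68 ± 0.39 (129Ola), 6.61 ± 0.09 (C3H), 6.42 ± 0.16 (B6), 6.10 ± 0.08 (NZO) and 5.86 ± 0.20 (DBA; SD, n = 4 mice each), and of neighbours in this order only B6 and NZO did not overlap.

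Oat encodes ornithine aminotransferase, a mitochondrial enzyme that turns ornithine into a precursor of glutamate and sits with glutamine synthetase in the pericentral rim. Its probe (chr7:139749726-139749785, minus strand) gave levels of 5.80, 6.00, 5.49 and 5.81 in B6, 5.67, 4.81, 5.13 and 5.64 in NZO, and 5.35, 5.38, 5.38 and 5.52 in DBA. The NZO mice fell into a high and a low pair, and both NZO and DBA overlapped B6. NZO minus B6 was -0.46 (95% interval -0.86 to -0.07, adjusted p = 0.101) and DBA minus B6 -0.37 (95% interval -0.77 to 0.03, adjusted p = 0.232). The NZO difference passed under 5 other settings, at -0.53 (adjusted p = 0.0382) with normexp background correction, -0.59 (adjusted p = 0.0313) with quantile normalization, -0.54 (adjusted p = 0.0471) with the percentile of detected probes, -0.53 (adjusted p = 0.0293) in the authors' value table and -0.55 (adjusted p = 0.0416) with scan day as a block. C3H mice had 5.16, 5.39, 5.48 and 5.78 and 129Ola mice 5.39, 5.11, 5.01 and 5.65, with a difference of 0.16 (95% interval -0.23 to 0.56). The strain means spanned 0.48, from 5.78 in B6 to 5.29 in 129Ola, and all neighbours in the order B6, C3H, DBA, NZO, 129Ola overlapped.

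Rhbg encodes an ammonia channel of the Rh glycoprotein family on the basolateral membrane of pericentral hepatocytes. It was the only one of the 8 tested members called higher in NZO than in B6. B6 mice had levels of 2.59, 2.34, 2.82 and 2.83, NZO mice 4.26, 3.68, 3.77 and 4.05, and DBA mice 3.30, 3.65, 3.29 and 3.20, at chr3:88047265-88047324 (minus strand). The 3 strains formed separate bands, with every NZO mouse above every DBA mouse and every DBA mouse above every B6 mouse. NZO exceeded B6 by 1.30 (SE 0.21, adjusted p = 0.00023), or 2.46-fold, and by 1.44 and 0.98 among mice scanned on the same day (3 against 2 and 1 against 2). DBA exceeded B6 by 0.72 (SE 0.21, adjusted p = 0.0267), or 1.65-fold, and by 0.71 and 0.60 within the 2 shared scan days. That second call was lost with scan day as a block (0.65, adjusted p = 0.148), with slide as a random block (0.80, adjusted p = 0.0605), and without B6 mouse 9 (adjusted p = 0.0629), B6 mouse 10 (adjusted p = 0.0906) or DBA mouse 8 (adjusted p = 0.0904). NZO minus DBA was 0.58 (95% interval 0.13 to 1.03, adjusted p = 0.0711). C3H mice had 3.05, 3.24, 3.46 and 2.89, and 129Ola mice 3.54, 3.21, 2.95 and 2.34, the widest spread of any strain. C3H minus 129Ola was 0.15 (95% interval -0.29 to 0.60), and among all 5 strains the means ran from 3.94 in NZO through DBA (3.36), C3H (3.16) and 129Ola (3.01) to 2.64 in B6.

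Rhbg was set beside 4 relatives and neighbours of the ammonia route, of which Rhag and Rhd were not tested. Rhcg, a further ammonia channel of the family, had a mean level 2.65 higher in NZO than in B6. Its probe was above background on 1 of 4 B6 arrays and all 4 NZO arrays. The Rhcg mean was 1.86 higher in NZO than in DBA, with 2 of 4 DBA arrays above background. These sizes rest on arrays at or near background. A gene was tested if detected on all 4 arrays of a strain, which of B6, NZO and DBA only NZO met for Rhcg. Its differences are therefore given as a description without a test. The median difference of Rhcg and Aqp8, the 2 genes that met the filter, was 1.65 for NZO against B6 and 0.82 for NZO against DBA. It moved to 0.59 and 0.11 with normexp background correction. Aqp8, an aquaporin of the hepatocyte, was higher in DBA than in B6 by 0.86 (adjusted p = 0.0187) and higher in C3H than in 129Ola by 1.33 (adjusted p = 0.00045).

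Slc1a2 encodes a high-affinity glutamate transporter best known from astrocytes, and in liver it marks the cells that also make glutamine. Through the probe printed above, it was low in NZO and C3H and high in B6, DBA and 129Ola. The log2 levels were 3.98, 3.76, 3.76 and 3.58 in B6, 3.69, 4.07, 3.82 and 3.70 in DBA, and 3.52, 3.22, 3.60 and 3.41 in 129Ola. NZO mice had 2.40, 2.20, 2.31 and 2.32, and C3H mice 1.99, 2.12, 2.52 and 2.26. The highest mouse of the low strains, at 2.52, lay below the lowest mouse of the other 3, at 3.22, so no mouse stood between. NZO was lower than B6, with a log2 difference of -1.46 (SE 0.12, adjusted p = 1.16e-07), or 2.75-fold, and lower than DBA (-1.51, SE 0.12, adjusted p = 6.67e-08). C3H was lower than 129Ola (-1.21, SE 0.12, adjusted p = 1.04e-06), or 2.32-fold. DBA minus B6 was 0.05 (95% interval -0.21 to 0.31, adjusted p = 0.868). Within shared scan days, NZO minus B6 was -1.33 and -1.67, and NZO minus DBA -1.48 and -1.49. Leaving out any 1 mouse kept NZO minus B6 between -1.53 and -1.39 and C3H minus 129Ola between -1.31 and -1.13.

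The other 2 probes of Slc1a2, both assigned to the transcript NM_001077514, passed the test in no comparison. The probe at chr2:102622252-102622311 was above background on all 20 arrays and had means of -0.54 ± 0.15 in B6, -0.83 ± 0.22 in NZO, -0.76 ± 0.27 in DBA, -0.90 ± 0.32 in C3H and -0.89 ± 0.16 in 129Ola (SD, n = 4 each). The mice of every pair of compared strains overlapped. NZO minus B6 was -0.30 (95% interval -0.64 to 0.05, adjusted p = 0.244 over probes) and C3H minus 129Ola -0.01 (95% interval -0.35 to 0.34, adjusted p = 0.984). Both intervals leave out the differences seen at the first probe. The cause of this disagreement was not tested, and neither probe sequence was compared with the genomes of the strains. The third probe, at chr2:102626380-102626439, was above background on 13 of 20 arrays, 0 of them from C3H and 2 from 129Ola. Its NZO mice lay below all B6 and all DBA mice. Its differences were -0.75 for NZO against B6 (adjusted p = 0.248), -0.63 for NZO against DBA (adjusted p = 0.352) and -1.07 for C3H against 129Ola (adjusted p = 0.0542), the last a bound of at least 1.08-fold.

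Within each array the log2 ratio of the first over the second probe was 4.30 ± 0.10 in B6, 4.57 ± 0.21 in DBA and 4.33 ± 0.20 in 129Ola, against 3.14 ± 0.18 in NZO and 3.12 ± 0.10 in C3H (SD, n = 4 each). The ratio ran from 2.90 to 3.32 in NZO and from 3.02 to 3.25 in C3H, and no mouse of the other strains was below 4.09. It differed by -1.17 between NZO and B6, by -1.44 between NZO and DBA and by -1.21 between C3H and 129Ola. DBA minus B6 was 0.27. This ratio was chosen after the levels of both probes were seen, so it is given as a description with no test. A gene level averaged over the 3 probes was lower in NZO than in B6 (-0.84, adjusted p = 0.00681), lower in NZO than in DBA (-0.74, adjusted p = 0.0157) and lower in C3H than in 129Ola (-0.76, adjusted p = 0.00778). The levels given for Slc1a2 elsewhere are those of the first probe, the brightest of the 3.

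**Figure D2:**
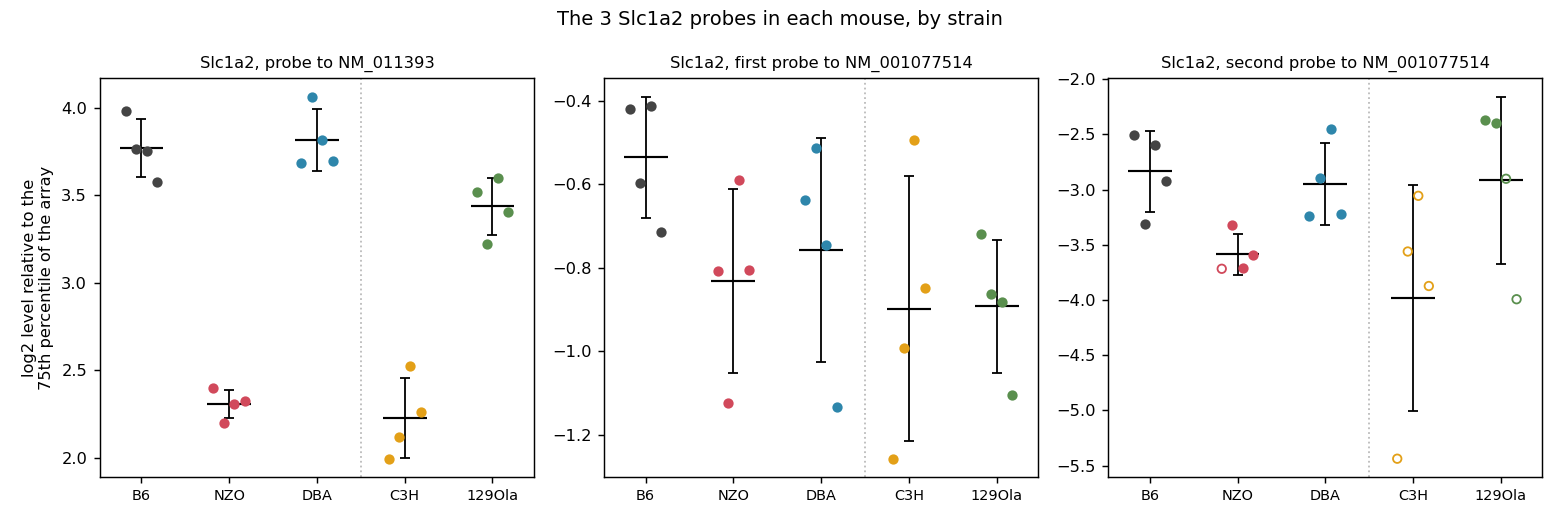
Log2 level relative to the 75th percentile of the array (y axis, a separate scale per probe) of the 3 Slc1a2 probes in each mouse, by strain; lines and bars are the mean ± SD of 4 mice, and open points are arrays on which the probe was not well above background. The first probe splits NZO and C3H (at most 2.52) from the other strains (at least 3.22), and in the second probe the strains overlap.

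Slc1a4 encodes a transporter of alanine, serine, cysteine and threonine. It had the widest span of strain means of the 8 genes, 2.88 on the log2 scale, and the difference was that of DBA. At chr11:20202615-20202674 (minus strand), DBA mice had levels of 6.12, 6.15, 5.83 and 6.22, and B6 mice 3.86, 4.28, 3.50 and 4.31. NZO mice had 5.07, 4.27, 3.99 and 4.16, with mouse 3 apart from the others. No mouse of any other strain reached the lowest DBA mouse. DBA exceeded B6 by 2.09 (SE 0.23, adjusted p = 2.74e-06), or 4.27-fold, and NZO was lower than DBA (-1.71, SE 0.23, adjusted p = 2.70e-05), or 3.27-fold. Within shared scan days DBA minus B6 was 1.54 and 2.44, and NZO minus DBA -1.42 and -1.85. NZO minus B6 was 0.39 (95% interval -0.10 to 0.87, adjusted p = 0.284).

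C3H mice had the lowest Slc1a4 levels, at 3.27, 3.38, 3.11 and 3.06, and 129Ola mice had 3.32, 4.16, 4.05 and 3.63. The strains overlapped at 1 mouse, 129Ola 4. C3H minus 129Ola was -0.59 (95% interval -1.07 to -0.10, adjusted p = 0.0525). It passed when the fit held these 2 strains only (adjusted p = 0.0416) and without 129Ola mouse 4 (-0.74, adjusted p = 0.024). Of 5 other Slc1 family transporters listed, 3 were tested. All 3 were above background in every DBA mouse, but only 1 in every mouse of B6, of NZO and of C3H, and 0 in 129Ola. Differences of these genes can therefore rest on arrays at or near background. A gene was tested if detected on all 4 arrays of a strain, so entry of these genes can depend on a high level in DBA. For this reason Slc1a7, a further glutamate transporter, is described without a test. Its mean was 2.08 higher in DBA than in B6, and NZO minus DBA was -1.76. For Slc1a5 and Slc1a6 the smallest adjusted p by limma was 0.0655 over the 4 comparisons.

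Among the genes that set the Wnt signal, Lgr5 and Rnf43 passed the test in no comparison, and Axin2 could not be tested. Lgr5 encodes a receptor for R-spondins and marks Wnt-responsive hepatocytes at the central vein. Its detected probe (chr10:114887403-114887462, minus strand) gave 0.20, 0.08, 0.06 and 0.24 in B6, -0.15, -0.49, -0.40 and -0.12 in NZO, and -0.48, 0.32, 0.28 and 0.46 in DBA. All 4 NZO mice lay below all 4 B6 mice, and DBA mouse 5 stood apart from the other DBA mice at -0.48. NZO minus B6 was -0.44 (95% interval -0.89 to 0.02, adjusted p = 0.19) and passed in a fit of these 2 strains alone (adjusted p = 0.0398). NZO minus DBA was -0.44 (adjusted p = 0.196), and -0.64 (adjusted p = 0.0311) without DBA mouse 5. C3H mice ranged from -0.35 to 0.28 and 129Ola mice from -0.47 to 0.43, with a difference of 0.05 (95% interval -0.41 to 0.50). A second Lgr5 probe (chr10:114900686-114900745) was above background on 0 of 20 arrays.

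Rnf43 encodes a ubiquitin ligase that takes Frizzled receptors off the cell surface and so limits Wnt signalling. Its levels (chr11:87548958-87549017, plus strand) were 1.96, 2.65, 1.93 and 2.22 in B6, 2.12, 1.30, 2.52 and 2.56 in NZO, and 1.73, 2.91, 2.24 and 2.53 in DBA. These strains overlapped throughout, and NZO mouse 7 was the lowest of the 20. C3H mice had 2.20, 2.29, 2.70 and 2.30, and 129Ola mice 3.04, 3.57, 2.89 and 2.44. The 129Ola mean of 2.99 ± 0.47 was the highest, and C3H minus 129Ola was -0.61 (95% interval -1.24 to 0.01, adjusted p = 0.109).

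Axin2 encodes a scaffold of the beta-catenin destruction complex and is a widely used target gene of the pathway. It was not tested, since neither probe was above background on all 4 arrays of any strain. The probe at chr11:108803927-108803986 was above background on 8 of 20 arrays, 2 each of B6 and NZO, 3 of DBA, 1 of C3H and 0 of 129Ola, at levels between -3.54 and -2.76 on those arrays. The probe at chr11:108812034-108812093 was above background on 0 of 20 arrays. At this signal no strain difference of Axin2 was detectable.

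Tbx3 encodes a T-box transcription factor downstream of beta-catenin in liver. B6 mice had levels of 2.33, 2.99, 3.03 and 2.23, NZO mice 2.32, 2.50, 3.90 and 2.84, and DBA mice 2.04, 3.32, 2.49 and 2.53 (chr5:120134511-120134570, plus strand). C3H mice had 3.40, 2.74, 3.61 and 3.40, and 129Ola mice 3.16, 4.17, 4.12 and 3.17. The spread inside strains was the widest of the 8 genes (median SD 0.53), with NZO mouse 9 about as high as the upper 129Ola mice. The intervals ran from -0.51 to 1.00 for NZO against B6, from -0.80 to 0.70 for DBA against B6, from -0.46 to 1.05 for NZO against DBA and from -1.12 to 0.39 for C3H against 129Ola.

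**Figure D3:**
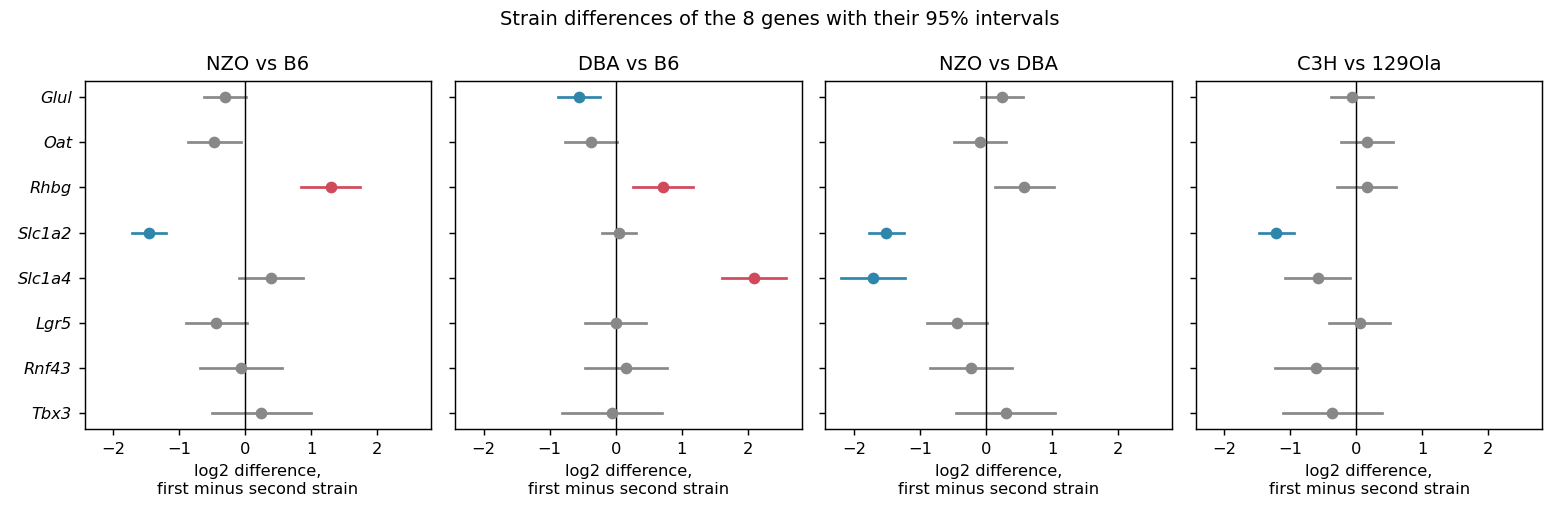
Log2 difference (x axis, first minus second strain) of each of the 8 tested genes in the 4 comparisons, with its 95% interval from the limma fit; colour marks an adjusted p under 0.05 (red higher, blue lower in the first strain) and grey the rest. Slc1a2 lies at -1.46, 0.05, -1.51 and -1.21, and Slc1a4 is past the threshold in the comparisons that involve DBA.

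The members did not all differ in the direction of Glul. In DBA, Glul was lower than in B6 while Rhbg and Slc1a4 were higher, and in NZO Slc1a2 was lower while Rhbg was higher. Likeness to Glul was measured as Pearson's r over the 20 arrays, after the mean of each set of strains (B6, NZO and DBA, or C3H and 129Ola) was subtracted, among 15202 genes above background on all arrays. The arrays share their scaling, and the strains in each set add to this r. Tbx3 had the highest r of the members, 0.41, at rank 1741. Lgr5 had 0.31, Rnf43 0.30, Slc1a2 0.13, Oat 0.10, Rhbg -0.11 and Slc1a4 -0.52, at rank 14906. The 5 genes most like Glul were Peli2 (0.80), Wipi1 (0.80), the array transcript NAP059962-1 (0.79), Cptp (0.78) and Mtrex (0.78). Axin2 was to be treated alike, but it was not above background on all arrays.

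Covariation was also taken between mice of the same strain. With each strain's mean subtracted, Pearson's r over the 20 arrays was above 0 for 23 of the 28 member pairs (82.1%), with a median of 0.21. Over all 115558003 pairs of the 15203 genes above background on all arrays, 57.1% were above 0 and the median was 0.06. The highest values joined Lgr5 with Rhbg (0.64), Glul with Rhbg (0.62), Tbx3 with Rnf43 (0.62) and Lgr5 with Rnf43 (0.60). Oat ran from -0.31 with Glul and -0.30 with Tbx3 to 0.24 with Slc1a2 and 0.26 with Rnf43. Slc1a4 had values from -0.18 to 0.19. The points share an array and its scaling factor, and these values are a description of 20 mice.

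**Figure D4:**
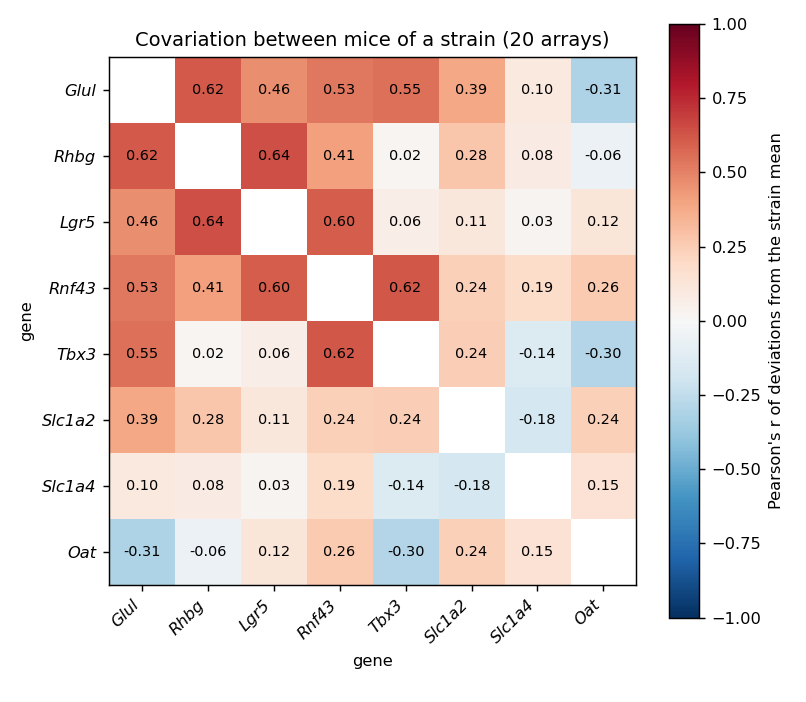
Pearson's r between the deviations of 8 genes (both axes) from their strain means over 20 arrays; red is positive and blue negative. The highest value is that of Rhbg with Lgr5, 0.64, and the lowest that of Oat with Glul, -0.31; Tbx3 is high with Rnf43 (0.62) and near 0 with Rhbg (0.02) and Lgr5 (0.06).

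The rest of the Wnt pathway was described from lists chosen by function, with earlier results of these data known. Their counts stand beside the shares of all genes past the threshold. These shares were 18.3% and 15.4% when NZO and DBA were set against B6, 18% for NZO against DBA and 37.9% for C3H against 129Ola. Of 12 Wnt ligands and R-spondins 7 were tested, and Wnt2, a ligand of the liver endothelium, was not among them. Wnt5a was higher in NZO than in B6 by 0.71 (adjusted p = 0.0381), and Wnt4 was lower in DBA than in B6 (-0.96, adjusted p = 0.00599). Rspo3, the R-spondin of the central vein, was lower in NZO than in DBA (-0.58, adjusted p = 0.00505), while Wnt5b was higher (0.62, adjusted p = 0.0287). Wnt5a was higher in C3H than in 129Ola (1.03, adjusted p = 0.00223), and Wnt4 and Wnt5b were lower (-0.83 and -0.73). With arrays scaled on the probes detected on all of them, the 1 gene of this list past the threshold in NZO against B6 was a lower one.

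Of 10 tested receptors and co-receptors, 0 passed in NZO against B6 by limma (1 at an unadjusted p under 0.05). Lgr4, the sister receptor of Lgr5 for R-spondins, and Lrp6, the co-receptor of Frizzled, were lower in DBA than in B6 (-0.78, adjusted p = 0.00282, and -0.47, adjusted p = 0.00498). Lgr4 was higher in NZO than in DBA (0.68, adjusted p = 0.00751). In C3H, Lrp6 (-0.75) and Lgr4 (-0.57) were lower than in 129Ola, and Fzd6, a Frizzled receptor, was higher by at least 1.19-fold, with 0 of 4 129Ola arrays above background. With arrays scaled on the probes detected on all of them, 2 genes of this list were higher and 1 lower in C3H. Quantile normalization gave 2 higher and 2 lower.

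Of 11 tested secreted and intracellular inhibitors, 2 were higher and 2 lower in NZO than in B6, 1 higher and 1 lower in DBA than in B6, 1 higher and 3 lower in NZO than in DBA, and 2 higher and 1 lower in C3H than in 129Ola. Wif1, which binds Wnt ligands outside the cell, was lower in NZO than in B6 (-3.87, adjusted p = 1.92e-05) and than in DBA (-4.32, adjusted p = 5.25e-06), with 2 of 4 NZO arrays above background. Dkk4, an antagonist of Lrp co-receptors, was higher in DBA than in B6 (1.69, adjusted p = 0.00775) and lower in NZO than in DBA (-2.02, adjusted p = 0.00169). Notum, an enzyme that inactivates Wnt ligands, was lower in NZO than in B6 (-0.33, adjusted p = 0.0125) and than in DBA (-0.34, adjusted p = 0.0114), and Dkk3 was higher in both (0.76 and 1.11). Tle1, a corepressor of TCF factors, was higher in C3H than in 129Ola (1.69, adjusted p = 2.28e-07).

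Of 17 genes of the beta-catenin complex and TCF factors, 3 passed in NZO against B6, all higher in NZO, a share close to the 18.3% of all genes that passed. They were Apc, the scaffold of the destruction complex (1.51, adjusted p = 2.77e-05), Ctnnbip1, which keeps beta-catenin from TCF factors (0.81, adjusted p = 0.00049), and Dvl1, a relay behind Frizzled (0.44, adjusted p = 0.00118). Bcl9l, a coactivator of beta-catenin, was lower in DBA than in B6 (-0.72, adjusted p = 0.0193). Ctnnb1, beta-catenin itself, is named here although its values were seen first, and it differed by 0.06, 0.07, -0.01 and -0.09 in the 4 comparisons in turn, where the smallest adjusted p was 0.561. Of this list 2 were higher and 6 lower in C3H than in 129Ola, and under the scaling on detected probes 2 were higher and 1 lower.

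Of 11 further Wnt target genes tested, 1 was higher and 4 were lower in NZO than in B6. Ccnd1, the cell cycle cyclin (-1.69, adjusted p = 0.0116), Tnfrsf19 (-1.47, adjusted p = 0.0148), Cd44 (-1.32, adjusted p = 2.95e-06) and Bmp4 (-0.70, adjusted p = 0.0325) were lower, and Cldn2, a tight junction protein, was higher (0.77, adjusted p = 0.00097). Cd44 and Ccnd1 were lower in DBA than in B6 too (-2.18 and -1.65), and Lect2 was higher (0.53, adjusted p = 0.00565). Vnn1 was lower in C3H than in 129Ola (-3.07, adjusted p = 3.00e-05) and Cldn2 was higher (0.87, adjusted p = 0.00024).

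Other genes of the pericentral hepatocyte, most of them enzymes of drug and steroid metabolism, were tested in 29 of 30 cases. In NZO 2 were higher and 6 lower than in B6, and 1 was higher and 10 lower than in DBA. Cyp2c37 (-3.17 against B6), the vasopressin receptor Avpr1a (-1.97) and the glutathione transferase Gstm3 (-1.84) were lower in NZO than in B6, and all 3 were lower than in DBA as well (-3.00, -2.11 and -2.49). In DBA 8 were higher and 1 lower than in B6, led by Cyp1a2, a cytochrome of caffeine oxidation (2.23, adjusted p = 2.60e-10), with Cyp2c38 (0.97), the retinal dehydrogenase Aldh1a1 (0.77) and the xenobiotic receptor Nr1i3 (0.65). The median log2 difference of this list was 0.25 for DBA against B6 and -0.23 for NZO against DBA, where that of all genes was 0.01 and 0.04. Cyp2e1, named after its values were seen, passed in NZO against DBA alone (-0.28, adjusted p = 0.0319).

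In C3H 1 gene of the pericentral list was higher and 12 were lower than in 129Ola, among them Cyp2c38 (-1.55, adjusted p = 1.66e-07), the cytochrome reductase Por (-1.55, adjusted p = 0.00076), Cyp3a11 (-1.21, adjusted p = 0.0273) and Nr1i3 (-1.20, adjusted p = 6.75e-05). With arrays scaled on the probes detected on all of them, 2 were higher and 6 lower. Of 26 genes of the opposite, periportal zone, 10 passed and were lower in C3H (7 under that scaling, 6 with normexp or quantile normalization) and 16 did not pass, where 37.9% of all genes passed and 22.6% were lower. The largest of these differences was that of Hsd17b13, a lipid droplet enzyme (-5.25, adjusted p = 1.64e-14). In the other comparisons 2 periportal genes were higher and 2 lower in NZO against B6, 2 and 1 in DBA against B6, and 2 and 1 in NZO against DBA.

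Around the glutamine reaction, 21 of 22 listed genes of glutamine, glutamate and ornithine handling were tested. In NZO 4 were higher and 3 lower than in B6, and in DBA 3 were higher and 6 lower. Slc7a2, the carrier that brings ornithine and arginine into hepatocytes, was lower in both (-2.01, adjusted p = 3.05e-05, and -1.48, adjusted p = 0.0007). The transaminases Got1 (1.24, adjusted p = 0.0214) and Gpt2 (0.65, adjusted p = 0.0265) were higher in NZO. In DBA the asparagine synthetase Asns (-1.30, adjusted p = 0.0104) and the glutamine carrier Slc38a1 (-1.11, adjusted p = 0.00016) were lower than in B6, and Slc38a5, a further glutamine carrier, was lower by at least 2.01-fold, with 0 of 4 DBA arrays above background. Against 129Ola, C3H had 2 higher, Pycr1 (2.04, with 1 of 4 129Ola arrays above background) and Aldh4a1 (0.64), and 4 lower, among them Slc7a2 (-0.94) and Slc38a1 (-0.64).

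**Figure D5:**
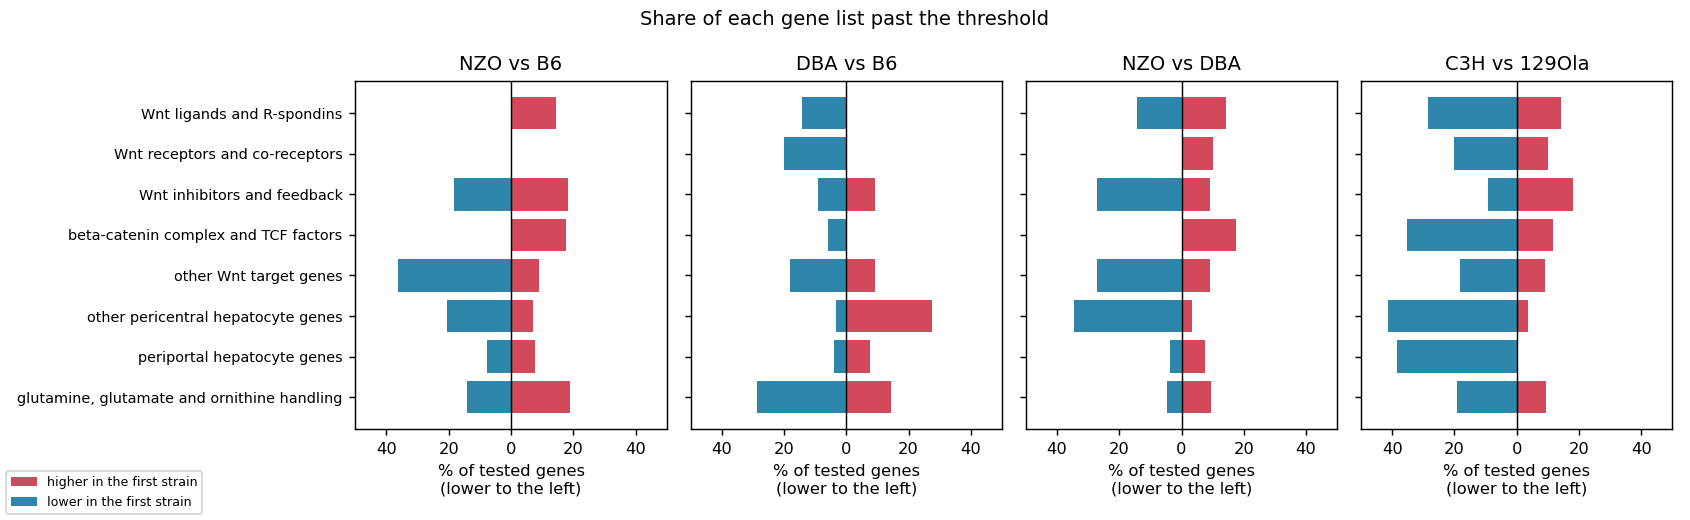
Share of the tested genes of each list (x axis, percent) past an adjusted p of 0.05 in the 4 comparisons, higher in the first strain to the right (red) and lower to the left (blue). Of the 29 other pericentral genes, 8 are higher and 1 lower in DBA against B6, and 1 is higher and 12 are lower in C3H against 129Ola.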

How the data were processed

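The intensity that was deposited per spot is, per the file headers, a background-subtracted and detrended signal from Agilent Feature Extraction 11.0.1.1 (B6, NZO, DBA) or 11.5.1.1 (C3H, 129Ola); the submitters' processing notes name 9.1. Spots flagged as outliers (96 to 186 per array) and 3671 control spots were left out, and no spot was saturated. Log2 signals had each array's 75th percentile subtracted. A probe was tested if well above background on all 4 arrays of a strain (28431 probes), and the brightest tested probe stood for a gene. The limma package (3.58.1, R 4.3.3) fitted 1 mean per strain over 20 arrays (17.1 degrees of freedom), with Benjamini-Hochberg adjustment. Labels give an animal number per array, read as 1 mouse each. The array files give probe coordinates on mm9. Probe sequences were not compared with strain genomes. A fold marked "at least" sets the brighter group's mean against the detection limit of the dimmer arrays. The authors' value table, a deposited intensity table normalized between arrays (background correction not given in the sources used here), served as an alternative. The value table ran the same way as the scanner values (rank correlation with the own array at least 0.96), and the median of each of its columns was 19.9. Genes were named by rule: all members, up to 4 genes per list and comparison with the largest differences past the threshold, and the 5 most like Glul. Members and lists were chosen with earlier results of these data known. Alternatives covered background, scaling, filters, probes, batches and single mice.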

Additional observations from a re-analysis of the deposited data

How the results depend on the processing

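Of the 8 tested members, no called difference changed its sign under any setting. NZO against B6 called 4 members in place of 2 under quantile normalization, under the percentile of probes above background on all arrays and in the authors' value table, where Glul and Oat joined. C3H against 129Ola called 2 in place of 1 with the arrays of the 2 strains only. Leaving out 1 mouse at a time gave 2 calls each time for NZO against B6, 2 to 3 for DBA against B6, 2 to 3 for NZO against DBA and 1 to 2 for C3H against 129Ola (2 without 129Ola mouse 4). The calls of Slc1a2 (NZO against B6 and DBA, C3H against 129Ola), of Slc1a4 (DBA against B6, NZO against DBA) and of Rhbg in NZO against B6 held in every setting run. For Slc1a2 each of these settings used the first probe, alone or in the mean of the 3 probes. They therefore do not test whether other probes of the gene show the difference. The second probe gave -0.30, -0.07 and -0.01 in these 3 comparisons, with no call. Scan day could not be fitted as a block for C3H against 129Ola. Over all genes, the percentile of detected probes moved C3H against 129Ola from 3170 higher and 4652 lower to 4553 and 2579, and NZO against B6 from 2004 and 1767 to 1559 and 2456. The count for C3H against 129Ola fell from 7822 to 4830 with normexp and 2892 with slide as a random block. That block let arrays of a slide correlate (0.38), and these 2 strains shared no slide. The cause was not tested. Signal near background limits Axin2 and the third Slc1a2 probe.

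Animal numbers shared between strains did not pair the mice (correlations of same-numbered deviations from -0.34 to 0.38). A replicate block on the animal number therefore matches no pairs in the design. It called 1 member in place of 3 for DBA against B6, with Glul at -0.61 (adjusted p = 0.272) and Rhbg at 0.52 (adjusted p = 0.261). For C3H against 129Ola, which share only mouse number 5, it called 2 in place of 1, with Slc1a4 at -1.27 (adjusted p = 0.0151). Over all genes this block called 1276, 1334, 1334 and 1534 genes in the comparisons NZO against B6, DBA against B6, NZO against DBA and C3H against 129Ola, in place of 3771, 3166, 3719 and 7822.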
